A study of Oryza sativa with 36 samples.

Results

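Heat shock factors of class C were examined in the young panicles of 6 rice varieties under drought. The probe sets were chosen by gene name, as those whose annotated gene carries the RefSeq symbol or synonym HSFC1A, HSFC1B, HSFC2A or HSFC2B, and for HSFC2A the locus LOC_Os02g13800 was given as well. Of these 4 genes, 3 had a probe set on the Affymetrix Rice Genome Array, 1 each, of 57194 probe sets tested. They were HSFC2A (RefSeq gene LOC4328809, which lists that name as a synonym, chromosome 2), HSFC1B (LOC4324158, chromosome 1) and HSFC1A (LOC4326685, chromosome 1). HSFC2B, on chromosome 6, matched no probe set and is left out.

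Heat shock factors are transcription factors that bind heat shock elements in promoters and are best known for switching on chaperone genes when proteins unfold. Class A members carry activation motifs, whereas members of classes B and C lack them, and subclass C2 is known from monocots. In rice HSFC1B is known for a part in salt and osmotic stress tolerance, and in wheat a C2a factor is known to act in the developing grain through abscisic acid, the hormone that plants make as they lose water.

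The study hybridised 36 arrays, 3 for each variety and treatment. Drought began late in tillering, by removal of the water, and the well watered plants stood in the same pool. In both groups the whole panicle was taken at 2 cm in length. The study classes MILT1444, EMATAYIN, DOURADOAGULHA and HUHAN3 as drought tolerant and KHAUMEO and NIPPONBARE as drought sensitive, and it gives DOURADOAGULHA and KHAUMEO as indica and the other 4 as japonica. The methods speak of independent experiments but do not say what set the 3 panicle samples of a group apart, so p-values measure the spread between these samples only.

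The 36 arrays were alike, with medians between 55.8 and 68.8 and a correlation of 0.987 to 0.996 between each array and the mean of the other arrays of its group. Floral MADS-box genes marked the tissue as labelled. Of 21 listed panicle markers 19 had a probe set, and their summed intensity ran from 47675 to 57516 in drought-stressed and from 44702 to 57591 in well watered panicles. The 3 measured green tissue markers, CAB2R, RBCS and RCA, summed to 3255 to 12282 in drought-stressed and 2795 to 12737 in well watered panicles. None of these 22 genes was called in the average response defined below, and at an unadjusted p under 0.05 in limma 4 panicle markers and 1 green tissue marker were higher and 1 panicle marker was lower, where the shares over all probe sets were 23.9% in the higher direction and 25.8% in the lower. The panicle marker APO2, a regulator of inflorescence development, averaged 0.82 on the log2 scale (adjusted p = 2.0e-04) and was called up within KHAUMEO (1.59, adjusted p = 0.035) and HUHAN3 (1.54, adjusted p = 0.026). The part of green tissue in the results was not tested. In whole panicles, fewer cells of a type and less RNA per cell cannot be told apart.

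The locus that the results turn on was also given a primer pair by the study for quantitative PCR, and the 2 primers are shown because they are the sequences the study designed against it. Its primer list describes the locus as an AP2/ERF-B3 factor and its gene table as a heat shock factor, and the RefSeq name HSFC2A is used here. Both are written 5′ to 3′ and each holds 12 G or C bases.
Forward primer, 22 bases: ttggacgaagtggctgtgaacg
Reverse primer, 23 bases: gagaccaaaaacccccaacaagg

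HSFC2A was higher under drought in every variety, and in none did the 2 treatments overlap. Intensities are the deposited values, which are linear and were taken to be RMA values returned from log2, since their scale is not stated, and they are given in the order of replicates 1 to 3. In MILT1444 they were 868.9, 621.0 and 420.0 in drought-stressed panicles, against 266.2, 115.3 and 90.7 in well watered panicles. In EMATAYIN they were 180.8, 201.6 and 142.2 in drought-stressed panicles, against 59.1, 44.0 and 63.8 in well watered panicles. In DOURADOAGULHA they were 765.1, 443.4 and 364.5 in drought-stressed panicles, against 132.5, 82.9 and 125.5 in well watered panicles. The treatments were apart in all 3 of these tolerant varieties, and EMATAYIN had the lowest values of the gene under drought.

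HSFC2A intensities in KHAUMEO were 987.6, 1916.3 and 639.1 in drought-stressed panicles, against 219.6, 115.4 and 232.9 in well watered panicles. In HUHAN3 they were 1514.4, 472.7 and 297.1 in drought-stressed panicles, against 87.2, 47.3 and 65.0 in well watered panicles. In NIPPONBARE they were 962.4, 424.8 and 457.8 in drought-stressed panicles, against 242.5, 189.2 and 134.4 in well watered panicles. One drought-stressed array stood well above the other two in each of these 3 varieties, and the lowest of the drought-stressed values still exceeded the highest of the well watered ones. Of all probe sets, 0.577% were likewise higher and apart in 6 of 6 varieties (330 probe sets). With 3 arrays against 3, an exact permutation test within a variety cannot give a p below 0.1.

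**Figure D1:**
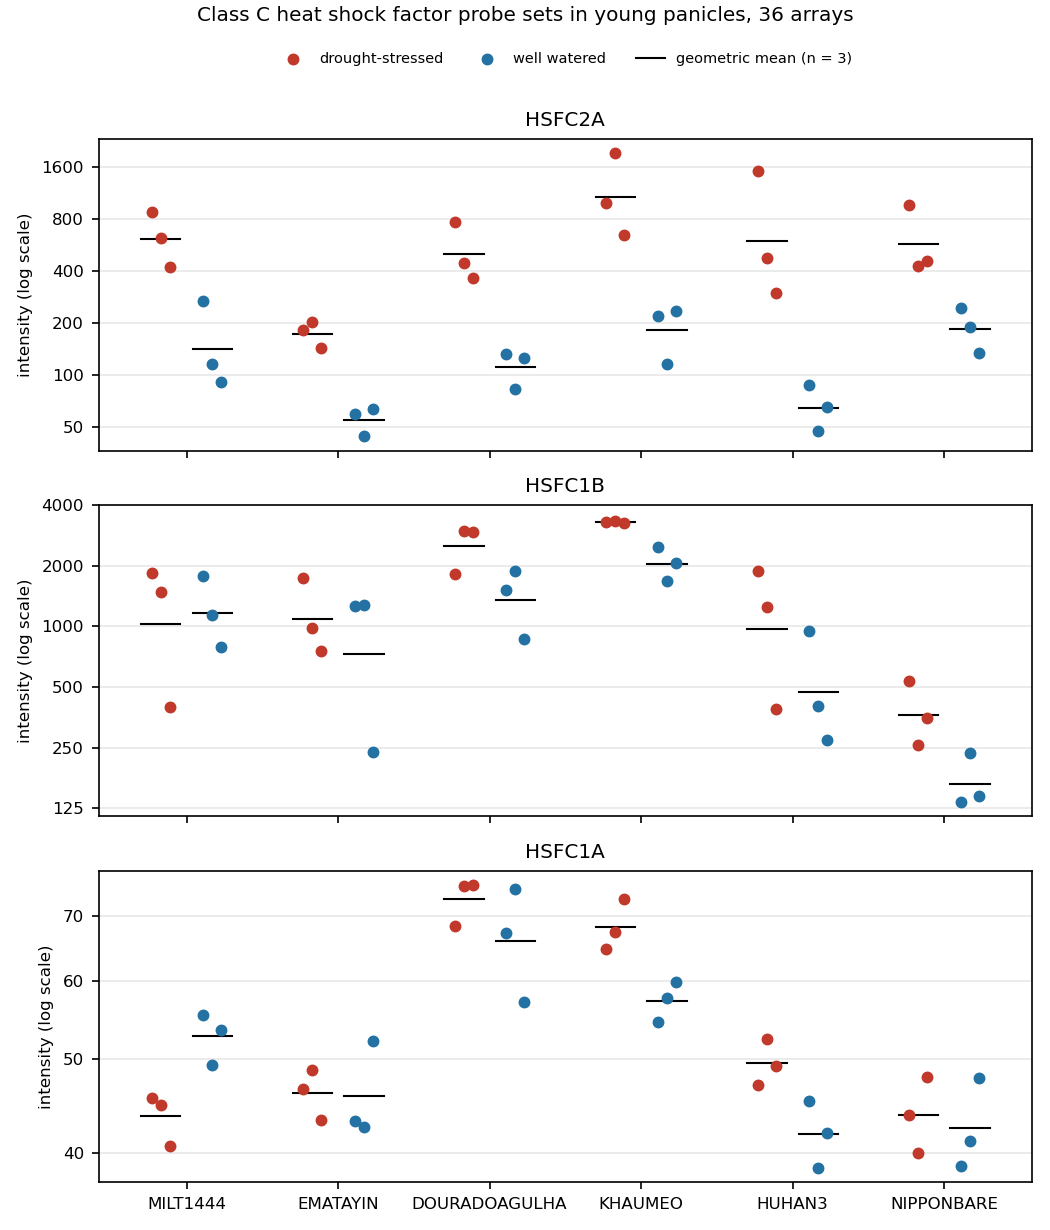
Intensity on a log scale for HSFC2A, HSFC1B and HSFC1A on each of 36 arrays, by variety, with drought-stressed arrays (red) left of well watered arrays (blue) and bars at the geometric mean of 3 arrays. HSFC2A ran from 142 to 1916 in drought-stressed and from 44.0 to 266 in well watered panicles and its treatments are apart in every variety, while those of HSFC1B and HSFC1A overlap in 4 and 3 varieties.

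The drought response is the log2 mean of the drought-stressed arrays minus that of the well watered arrays, and a probe set was called where limma gave a p of at most 0.05 after Benjamini-Hochberg adjustment and the change was at least 2-fold. On average over the varieties HSFC2A rose by 2.22 on the log2 scale (SE 0.20, 95% interval 1.82 to 2.63), which is a 4.67-fold change (limma, adjusted p = 5.6e-09). It ranked at number 17 of 57194 probe sets in this average response, in which 195 probe sets (0.341%) were called up and the median of all was -0.01.

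Within varieties HSFC2A was called up in 5 of 6, a count that 25 probe sets (0.0437%) reached or passed. The response was 3.21 in HUHAN3 (adjusted p = 4.9e-04), 2.56 in KHAUMEO (adjusted p = 0.0067), 2.16 in DOURADOAGULHA (adjusted p = 0.017), 2.12 in MILT1444 (adjusted p = 0.013) and 1.64 in NIPPONBARE (adjusted p = 0.029), each with an SE of 0.48. The share of all probe sets called up was 0.554% in HUHAN3, 0.259% in KHAUMEO, 0.231% in DOURADOAGULHA, 0.614% in MILT1444 and 0.546% in NIPPONBARE. In EMATAYIN the response was 1.65 with the same SE and did not pass (adjusted p = 0.17), and it was 1.09 with 50 added to each value before log2. There 0.0507% of probe sets were called up, and HSFC2A still ranked at number 83 by its log2 change. Its well watered values in HUHAN3 (47.3 to 87.2) and EMATAYIN (44.0 to 63.8) lay near the array medians of 55.8 to 68.8. The HUHAN3 response, the largest, was 2.51 with 50 added to each value.

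These calls within varieties rested on the spread shared by all 12 groups. With each variety fitted on its own 6 arrays, the responses stayed as given and none of the 6 passed, with adjusted p from 0.058 in NIPPONBARE to 0.16 in HUHAN3 for the 5 that had been called. The average response did not depend on any 1 array: it lay between 2.04 and 2.48 over 39 fits that each left out 1 array or 1 replicate number, with a highest adjusted p of 5.0e-04.

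**Figure D2:**
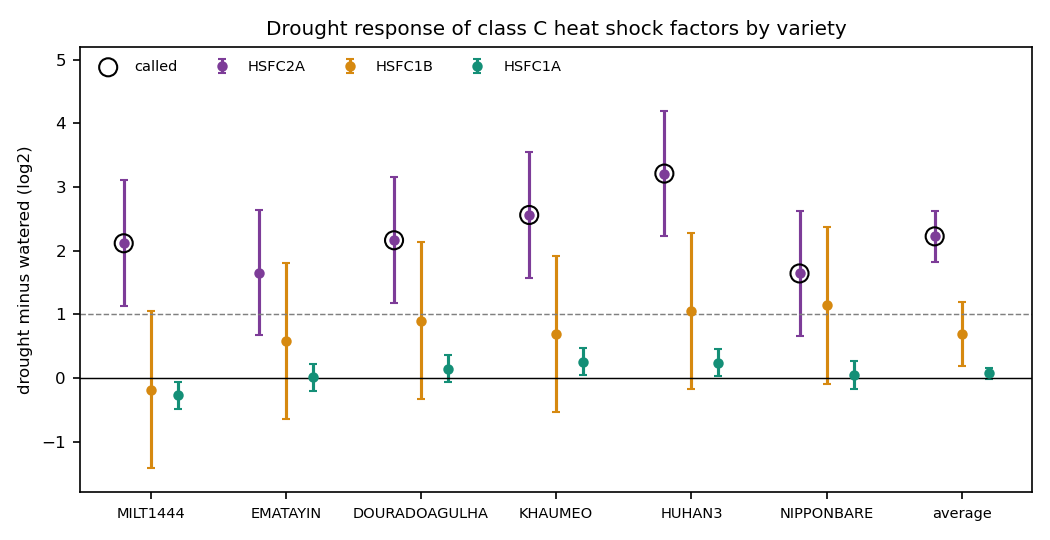
Drought response (log2, drought minus watered) of HSFC2A, HSFC1B and HSFC1A in each variety and on average, with 95% intervals from limma, circles around called responses and a dashed line at 2-fold. HSFC2A was called in 5 varieties and on average, and the other two in none.

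The varieties were then set against each other, since the study chose them for contrasting drought tolerance. The HSFC2A response did not differ detectably among the 6 varieties (interaction F = 1.52, limma, adjusted p = 0.83), a test that 0.0542% of all probe sets passed. It averaged 2.29 in the tolerant and 2.10 in the sensitive varieties, a difference of 0.19 (SE 0.42, 95% interval -0.67 to 1.04, limma, adjusted p = 0.96), and with 50 added to each value it turned to -0.06. No probe set was called in that comparison and 3590 had an unadjusted p under 0.05 in limma. It averaged 2.36 in the indica and 2.16 in the japonica varieties, a difference of 0.21 (SE 0.42, 95% interval -0.65 to 1.06, limma, adjusted p = 0.92), in a comparison where 0.0105% of probe sets were called, and it turned to -0.17 without replicate 2 of all groups. Over the 15 ways of choosing 2 of 6 varieties, the exact two-sided permutation p was 0.80 for the tolerant and 0.73 for the indica comparison, and the smallest p that test can give is 0.067. With HSFC1B and HSFC1A included, 6 such permutation tests were run, and after Benjamini-Hochberg adjustment all stood at 0.87.

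The level of HSFC2A, unlike its response, differed between varieties in both treatments. In drought-stressed panicles the geometric means were, from the highest, 1065 in KHAUMEO, 610 in MILT1444, 597 in HUHAN3, 572 in NIPPONBARE, 498 in DOURADOAGULHA and 173 in EMATAYIN (F test, limma, adjusted p = 0.0024; 32.9% of probe sets passed). Every neighbour in that order overlapped the next except DOURADOAGULHA and EMATAYIN, whose arrays were apart. EMATAYIN was lower than the mean of the other 5 varieties (log2 difference -1.90, SE 0.37, limma, adjusted p = 4.4e-04), a call that 1.69% of probe sets shared. KHAUMEO was higher than the other 5 by 1.25 (SE 0.37, limma, adjusted p = 0.015; 1.44% of probe sets called). Without its brightest array, replicate 2, the KHAUMEO difference was 0.83 (adjusted p = 0.21), and without replicate 1 it was 1.31 (adjusted p = 0.050, just above the threshold).

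In well watered panicles the HSFC2A geometric means were 183 in NIPPONBARE, 181 in KHAUMEO, 141 in MILT1444, 111 in DOURADOAGULHA, 64.5 in HUHAN3 and 55.0 in EMATAYIN (F test, limma, adjusted p = 0.011; 34.0% of probe sets passed). Each neighbour in that order overlapped the next. EMATAYIN was again lower than the other 5 (difference -1.21, SE 0.37, limma, adjusted p = 0.028; 1.58% of probe sets called), and this call was lost without any 1 of its 3 well watered arrays, with adjusted p from 0.063 to 0.15, and with 50 added to each value (-0.79, adjusted p = 0.12). The drought-stressed values of EMATAYIN, from 142 to 202, fell within the range of the well watered values of NIPPONBARE, from 134 to 242.

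HSFC1B, the class C factor tied to salt and osmotic stress in rice, was called in no variety under drought and differed in level between varieties. In drought-stressed panicles it read 3295.4, 3313.7 and 3245.4 in KHAUMEO, against 2460.7, 1667.9 and 2068.7 in well watered panicles. In NIPPONBARE it read 535.9, 256.8 and 351.3 in drought-stressed panicles, against 133.7, 235.4 and 143.8 in well watered panicles. These were the varieties with the highest and the lowest means of the gene in both treatments, and the only 2 in which the treatments did not overlap. Treatments were apart, in either direction, in at least 2 varieties for 39.8% of all probe sets.

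The remaining HSFC1B values overlapped between treatments. They were 1836.1, 1479.9 and 396.6 in drought-stressed MILT1444, against 1782.5, 1131.3 and 784.5 in well watered MILT1444. They were 1729.7, 980.8 and 757.1 in drought-stressed EMATAYIN, against 1261.5, 1274.4 and 238.0 in well watered EMATAYIN. In MILT1444 and EMATAYIN a single low array, in each case replicate 3, stood far from the others of its group. In DOURADOAGULHA the values were 1821.8, 2963.0 and 2937.8 in drought-stressed panicles, against 1511.2, 1881.5 and 861.4 in well watered panicles. In HUHAN3 they were 1888.9, 1251.6 and 390.6 in drought-stressed panicles, against 949.8, 401.8 and 272.3 in well watered panicles. There, too, the drought-stressed array at 390.6, again replicate 3, stood far below the others of its group. Replicates of HSFC1B thus spread widely, and the SE of a response within a variety was 0.60.

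HSFC1B was called in no variety, with responses from -0.18 in MILT1444 to 1.14 in NIPPONBARE and adjusted p from 0.21 to 0.91 in limma. Single arrays set the direction in MILT1444 and EMATAYIN, while in HUHAN3 the response stayed between 0.57 and 1.71 in the leave-out fits. Without drought-stressed replicate 3 the MILT1444 response was 0.50, and without well watered replicate 3 the EMATAYIN response was -0.22, against 0.58 with all arrays. Its average response was 0.70 (SE 0.25, 95% interval 0.19 to 1.20, limma, adjusted p = 0.024; 0.071 without replicate 1 and 0.15 without replicate 2 of all groups). That is under 2-fold and so not a call, and 20.6% of all probe sets passed the adjusted p alone in the same direction. Its response showed no difference among varieties that passed (interaction, limma, adjusted p = 0.95). The tolerant minus sensitive difference was -0.33 (95% interval -1.39 to 0.74) and the indica minus japonica difference 0.15 (95% interval -0.92 to 1.21).

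The level of HSFC1B spanned 9.02-fold among varieties under drought and 12.3-fold when well watered (F tests, limma, adjusted p = 0.0013 and 2.0e-04, where 32.9% and 34.0% of probe sets passed). NIPPONBARE lay below the other 5 varieties in drought-stressed panicles (log2 difference -2.09, SE 0.46, limma, adjusted p = 0.0013; 0.937% of probe sets called) and in well watered panicles (log2 difference -2.62, SE 0.46, limma, adjusted p = 8.7e-05; 1.06% called). KHAUMEO lay above the other 5 by 1.72 in drought-stressed panicles (SE 0.46, limma, adjusted p = 0.0072; 1.44% called) and by 1.73 in well watered panicles (SE 0.46, limma, adjusted p = 0.0078; 1.53% called). The well watered KHAUMEO difference no longer passed without replicate 1 of that group (1.59, adjusted p = 0.064). Without replicate 2 of all groups, the F test under drought (adjusted p = 0.18), the drought-stressed NIPPONBARE difference (-1.74, adjusted p = 0.15) and both KHAUMEO differences (1.76 under drought, adjusted p = 0.12, and 2.03 when well watered, adjusted p = 0.076) no longer passed. From the highest, the drought-stressed geometric means were 3285 in KHAUMEO, 2512 in DOURADOAGULHA, 1087 in EMATAYIN, 1025 in MILT1444, 974 in HUHAN3 and 364 in NIPPONBARE. KHAUMEO stood apart from DOURADOAGULHA and DOURADOAGULHA from EMATAYIN, and the neighbours below them overlapped. When well watered they were 2040 in KHAUMEO, 1348 in DOURADOAGULHA, 1165 in MILT1444, 726 in EMATAYIN, 470 in HUHAN3 and 165 in NIPPONBARE, and only HUHAN3 and NIPPONBARE were apart.

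HSFC1A was called neither on average nor in any variety. Its 18 drought-stressed arrays read from 40.0 to 75.3 with a median of 48.3, and its 18 well watered arrays from 38.6 to 74.5 with a median of 50.7. The average response was 0.07 (SE 0.04, 95% interval -0.02 to 0.16, limma, adjusted p = 0.19), and no variety passed, with responses from -0.27 in MILT1444 to 0.25 in KHAUMEO. Scaled to 4 reference genes, which moved the median of all probe sets to 0.14, the average was 0.23 (adjusted p = 7.0e-04), and DOURADOAGULHA (0.45, adjusted p = 0.012), KHAUMEO (0.53, adjusted p = 0.0076) and HUHAN3 (0.40, adjusted p = 0.048) passed the adjusted p at less than 2-fold. The reference genes themselves moved under drought, UBQ5 by -0.50 (limma, adjusted p = 8.6e-07), ACT1 by -0.13 (adjusted p = 0.0029), ACT2 by -0.18 and TIP41 by 0.18. UBQ5 stood at -0.99 in DOURADOAGULHA and -0.69 in KHAUMEO. Drought-stressed arrays were apart and higher in KHAUMEO (64.7, 67.5 and 72.9, against 54.6, 57.6 and 59.9 in well watered panicles) and in HUHAN3 (47.0, 52.3 and 49.2, against 45.3, 38.6 and 41.9 in well watered panicles), and apart and lower in MILT1444 (45.6, 44.8 and 40.7, against 55.5, 49.3 and 53.5 in well watered panicles). Of all probe sets, 39.8% had treatments apart, in either direction, in at least 2 of 6 varieties. The share for at least 3 varieties was not counted. The HSFC1A interaction did not pass (limma, adjusted p = 0.53).

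Between varieties HSFC1A was higher in the 2 indica varieties, by less than 2-fold. The probe set was dim, with values from 38.6 to 75.3 where the medians of the arrays lay between 55.8 and 68.8. Its drought-stressed geometric means were 72.9 in DOURADOAGULHA and 68.3 in KHAUMEO, against 43.6 to 49.4 in the 4 japonica varieties, with no overlap between the 2 sets of arrays. How many of all probe sets split in this way was not counted. Its well watered means were 65.9 in DOURADOAGULHA and 57.3 in KHAUMEO, against 41.8 to 52.7 in the japonica varieties, and there KHAUMEO overlapped MILT1444. The F tests among varieties gave adjusted p = 2.2e-07 under drought and 1.8e-05 when well watered (limma), the second of which was 0.065 without replicate 2 of all groups. Of all probe sets, 32.9% and 34.0% passed these tests.

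The responses of HSFC2A and its relatives were subtracted within each variety. HSFC2A exceeded HSFC1B by 1.53 on average and in 6 of 6 varieties, by 0.50 in NIPPONBARE and up to 2.30 in MILT1444. It exceeded HSFC1A by 2.15 on average and in 6 of 6 varieties, from 1.60 in NIPPONBARE to 2.97 in HUHAN3. Both differences were chosen after the values were seen and carry no test.

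The other heat shock factors were next described in the same way, counting for each gene its brightest probe set. Of 18 class A genes listed 12 had a usable probe set, and none was called on average in limma. At an unadjusted p under 0.05, 5 of the 12 were higher and 0 lower, against 23.9% and 25.8% of all probe sets, and their median response was 0.16. The 4 with the largest average responses were HSFA3 at 0.40 (adjusted p = 0.087), HSFA2A at 0.33 (adjusted p = 0.49), HSFA6B at 0.31 (adjusted p = 3.8e-05) and HSFA2C at 0.29 (adjusted p = 0.062). HSFA2A stood at -0.03 without replicate 2 of all groups. A second, dimmer probe set of HSFA2C stood at -0.36 (adjusted p = 0.45), and the mean of the gene's probe sets at -0.03. HSFA6B passed the adjusted p well below 2-fold, and it was higher in 6 of 6 varieties. Of 8 class B genes, which in plants mostly act as repressors, 5 were measured. None was called in limma, 1 was lower and 0 higher at an unadjusted p under 0.05, and the median was -0.09. HSFB1 stood at -0.21 (adjusted p = 0.011) and was lower in 6 of 6 varieties, though at -0.05 (adjusted p = 0.60) scaled to reference genes. HSFB2B at 0.28, HSFB2C at -0.12 (0.04 with that scaling) and HSFB4B at 0.10 did not pass. HSFB2A had probe sets at -0.09 and -0.54 (adjusted p = 0.74 and 0.12), of which the first was the brighter.

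**Figure D3:**
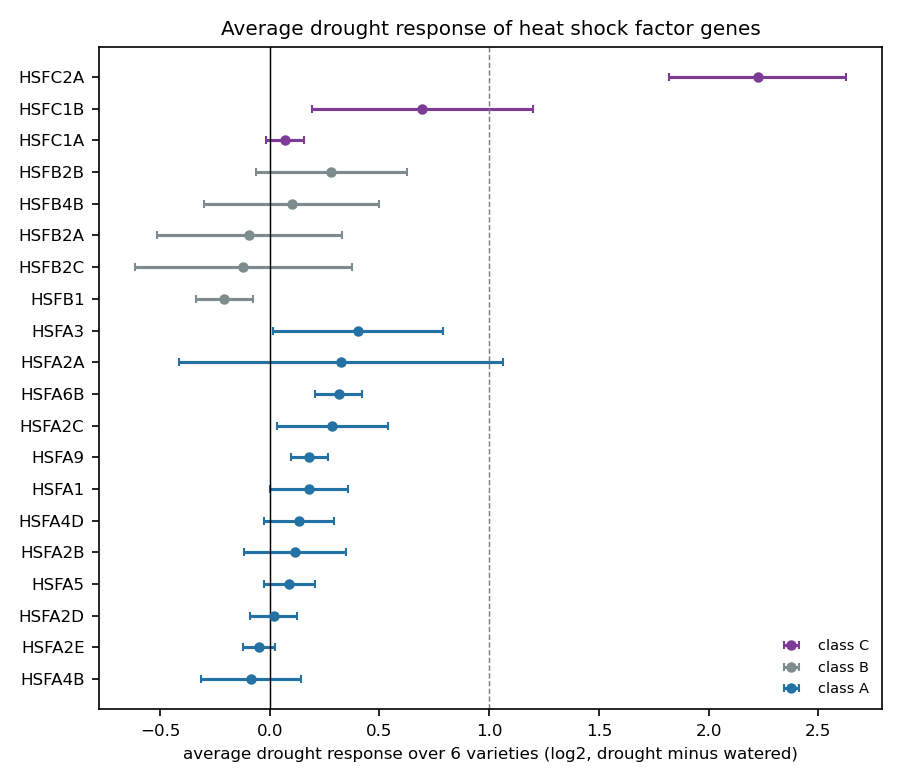
Average drought response over 6 varieties (log2, drought minus watered) of the 20 heat shock factor genes with a probe set, by class and each by its brightest probe set, with 95% intervals from limma, and a dashed line at 2-fold. HSFC2A at 2.22 lies alone beyond the line, and the class A and class B genes lie between -0.21 and 0.40.

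Heat shock proteins, the chaperones that heat shock factors are known to control, mostly did not pass. Of 42 listed 23 were measured, 1 was called up on average (0.341% of all probe sets were) and 0 down, and the median average response was 0.01. At an unadjusted p under 0.05, 4 were higher and 3 lower, where 23.9% and 25.8% of all probe sets were. HSP16.9A, a small heat shock protein of the cytosol, rose by 2.08 (SE 0.27, limma, adjusted p = 1.3e-06), and it was called in MILT1444 at 5.14 and in EMATAYIN at 3.13. Its arrays read 7502, 3814 and 3826 in drought-stressed MILT1444, against 123, 107 and 189 in well watered MILT1444. In KHAUMEO, where HSFC2A was brightest under drought, HSP16.9A read 165, 313 and 81.1 in drought-stressed panicles, against 72.0, 92.4 and 90.4 in well watered panicles. Its treatments were thus far apart in MILT1444 and overlapped in KHAUMEO, and the difference among varieties in its response did not pass (interaction, limma, adjusted p = 0.13). HSP23.2 at 0.93 (adjusted p = 0.0041), HSP26.7 at 0.55 (adjusted p = 0.18) and HSP101 at 0.46 (adjusted p = 0.13) followed it on average. All 3 were highest in MILT1444, at 3.59, 3.04 and 1.49. There HSP23.2 and HSP26.7 were called up (limma, adjusted p = 0.0012 and 0.030) and HSP101 was not (adjusted p = 0.17). Of all probe sets, 0.614% were called up in MILT1444.

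Genes of abscisic acid and water deficit moved in number. Of 32 listed 20 were measured, 10 were called up on average and 0 down, and the median response was 0.88. Of all probe sets, 0.341% were called up on average. Dehydrins, hydrophilic proteins made in drying tissue, held the 4 largest responses, with RAB16B at 3.72 (adjusted p = 2.9e-10), RAB21 at 3.68 (adjusted p = 5.9e-10), RAB16C at 2.47 (adjusted p = 7.2e-08) and RAB25 at 1.92 (adjusted p = 6.8e-08), all from limma and all higher in 6 of 6 varieties. The dehydrins LIP9 at 0.34 (adjusted p = 7.7e-04) and RAB16D at 0.14 (adjusted p = 0.014) stayed under 2-fold and were called in no variety. RAB16B ran from 346 to 4430 with a median of 1494 in drought-stressed panicles, against 31.9 to 495 with a median of 84.4 in well watered panicles. Its calls came in 5 varieties and missed EMATAYIN, where 0.0507% of all probe sets were called up, and the same held for HSFC2A, RAB21 and RAB16C.

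Regulators of seed development were few on the array. Of 15 listed 6 were measured, of which 1 was called up on average, where 0.341% of all probe sets were. MFT1, a member of the flowering-regulator family that acts in seed dormancy, rose by 2.06 (adjusted p = 2.3e-09, limma) although its arrays ran only from 8.01 to 339, and by 1.07 with 50 added to each value. LFL1, a B3 factor related to the embryo regulators, was at 0.73 (adjusted p = 2.1e-05), and at 0.37 with 50 added. HSFA9, the class A factor tied to seed maturation in Arabidopsis and sunflower, was at 0.18 (adjusted p = 9.7e-04), and MFT2 was at -0.10 (adjusted p = 0.46), turning to 0.06 scaled to reference genes.

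The genes whose pattern was most like that of HSFC2A were then sought among 28596 other probe sets brighter on average than the median. Over the 36 arrays PP2C08, a clade A protein phosphatase that holds back abscisic acid signalling, had the highest Pearson correlation of all of them (r = 0.95). It ran from 1449 to 6153 with a median of 3271 in drought-stressed panicles, against 699 to 2660 with a median of 1351 in well watered panicles, and rose by 1.21 on average (SE 0.12, limma, adjusted p = 3.7e-08). Much of such a correlation is the treatment that all points share. With the mean of each variety and treatment taken off, the correlation of PP2C08 with HSFC2A over the 36 array deviations was 0.75.

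**Figure D4:**
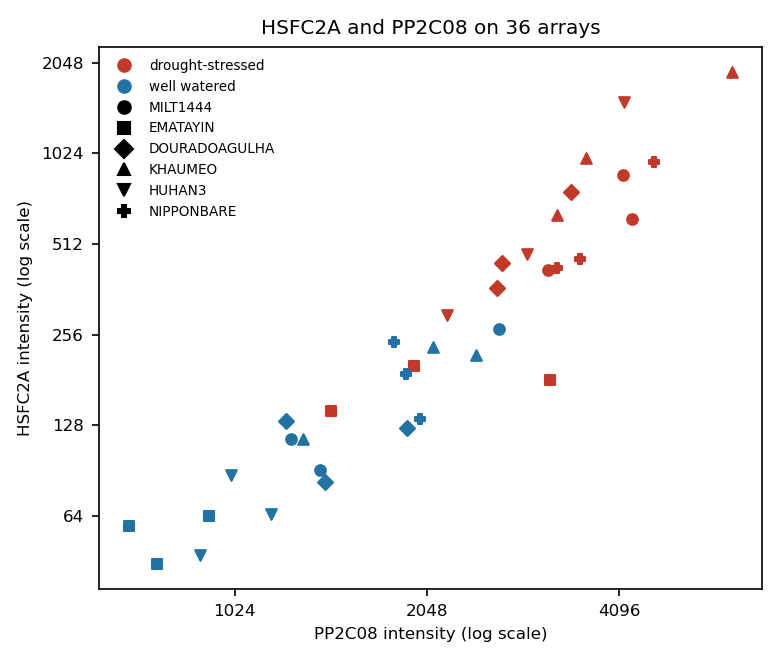
HSFC2A against PP2C08 intensity, both on log scales, for 36 arrays, with drought-stressed arrays in red, well watered arrays in blue and a symbol for each variety. The arrays form 1 band (r = 0.95) with the drought-stressed KHAUMEO array with HSFC2A at 1916 at its high end and well watered EMATAYIN arrays at its low end.

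Next among genes with a symbol were RAB21 (r = 0.90, from a probe set of this gene with an average response of 3.49) and RAB16B (r = 0.87), then the homeodomain-leucine zipper gene HOX14 (r = 0.87). They were followed by TRAB1 (r = 0.86), a bZIP factor that binds abscisic acid response elements, by PDHE1-A (r = 0.86), which encodes a pyruvate dehydrogenase subunit, and by RAB16C (r = 0.86). GF14D (r = 0.86), a 14-3-3 protein, PM1 (r = 0.85), a membrane protein of the PM19 family, and PP2C10 (r = 0.85), a protein phosphatase, completed the first 10. All 10 were higher in 6 of 6 varieties, but by very different amounts, from 0.13 for GF14D and 0.25 for PP2C10 to 3.72 for RAB16B. With group means taken off, their correlations ran from 0.44 for PP2C10 to 0.77 for RAB21. Without the need for a symbol, the closest after PP2C08 were LOC4337160 (r = 0.92), a probe set with no annotated gene (r = 0.92), LOC4341691 (r = 0.92), LOC4349298 (r = 0.92) and LOC4338603 (r = 0.91). LOC4339624 (r = 0.90), LOC4336815 (r = 0.89) and LOC4324254 (r = 0.89) were also among the first 10.

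The array deviations from group means were also correlated with HSFC2A list by list. The 20 abscisic acid and water deficit genes had a median correlation with HSFC2A of 0.52, from -0.27 to 0.78, and 18 of 20 were above 0. The 23 heat shock proteins had a median of -0.19, from -0.44 to 0.41 for HSP16.9A, with 6 of 23 above 0. The 12 class A factors had a median of 0.07, the 5 class B factors one of -0.24, and HSFC1B and HSFC1A stood at 0.42 and -0.07. Over all 57193 other probe sets the median was -0.03. These are descriptions over 36 points that share arrays and normalization, and genes are not independent of each other.

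Over the 6 variety responses, a much shorter series, the genes with a symbol most like HSFC2A were VDAC6 (r = 0.98), a mitochondrial anion channel, PID2 (r = 0.96), CIPK12 (r = 0.94), a CBL-interacting kinase, CCAMK (r = 0.93), a calcium and calmodulin-dependent kinase, and MYBS3 (r = 0.93), a MYB factor. Of these 5, VDAC6 and MYBS3 were higher under drought in 6 of 6 varieties by small amounts, 0.14 and 0.24 on average, while PID2 was lower in all 6 and averaged -0.18. With group means taken off, the correlations of these 5 with HSFC2A over the arrays ran from -0.04 for PID2 to 0.48 for MYBS3. The highest of 28596 correlations over 6 points can be this large without any link between genes. The list is therefore a description only and was not tested. Without the need for a symbol, LOC4348864 (r = 0.99), LOC4337425 (r = 0.98), LOC4351839 (r = 0.98) and LOC4351607 (r = 0.98) came in the first 5 beside VDAC6. None of the 10 genes most alike over the arrays was among them.

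The nearest annotated genes in the RefSeq assembly ASM3414082v1 were not called where they had a usable probe set. On the other side of HSFC2A and of HSFC1B the nearest gene had none. HEI10, a meiotic crossover gene that lies next to HSFC2A, had 2 probe sets with average responses of -0.19 and 0.13 (SE 0.06 and 0.05, limma, adjusted p = 0.020 and 0.029). BURP3, next to HSFC1B, was at -0.32 (SE 0.12, adjusted p = 0.034). KIN13B and LOC4326686, on either side of HSFC1A, were at 0.15 and 0.45 (adjusted p = 8.9e-04 and 6.4e-04), both under 2-fold.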

How the data were processed

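The deposited table holds 36 columns of linear intensity, 1 for each array. Per the labels and methods, the authors summarised Affymetrix probes by RMA with the affy package and used limma. The values run from 1 to 21699, with 112 at the lowest value. Genes came from the platform annotation, with 22436 probe sets assigned to 1 gene, 95 to more and 34663 to none, and symbols from RefSeq. The 187 control probe sets were left out.

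Intensities were taken to log2 and 57194 probe sets fitted in limma 3.58.1 (R 4.3.3) on 12 group means, with default eBayes and Benjamini-Hochberg adjustment within each contrast. The fit was tested on simulated data. Intervals use 27.6 degrees of freedom. Permutations and correlations were run in Python 3.11.15. The members and gene lists were chosen with earlier results of these data known. Named are all class C probe sets, the 4 genes of each response list with the largest absolute average response, and the genes most correlated with HSFC2A (10 over arrays, 5 over variety responses, with and without a symbol). Alternatives were another eBayes setting, quantile or reference-gene scaling, an added offset of 50, fits by variety, a replicate block and left-out arrays.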

Additional observations from a re-analysis of the deposited data

How the results depend on the processing

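The HSFC2A average response kept its direction and its call under every alternative tried, from 1.80 with 50 added before log2 up to 2.48 without replicate 3 of all groups. It was 2.38 scaled to reference genes, a scaling that moved the median response of all probe sets to 0.14, against -0.01 as deposited. Its calls within varieties were less firm. Fitted on its own 6 arrays, no variety was called (0 of 6), with the same responses of 3.21 in HUHAN3, 2.56 in KHAUMEO, 2.16 in DOURADOAGULHA, 2.12 in MILT1444 and 1.64 in NIPPONBARE. The NIPPONBARE call was also lost after scaling to reference genes (1.66, adjusted p = 0.061) and with the 6 contrasts adjusted jointly (1.64, adjusted p = 0.055). The difference in HSFC2A level among well watered varieties was lost with 50 added (adjusted p = 0.093). Scaled to reference genes, 2 heat shock proteins were called up, with HSP23.2 the second at 1.08. The cause of these shifts was not tested, and the fits by variety also held a smaller number of samples.

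Leaving out each array or replicate number in turn, the HSFC2A response ran from 2.54 to 3.72 in HUHAN3, 1.81 to 3.11 in KHAUMEO, 1.85 to 2.47 in DOURADOAGULHA, 1.80 to 2.58 in MILT1444, 1.38 to 1.90 in EMATAYIN and 1.27 to 1.88 in NIPPONBARE. The varieties called ran from 0 (without replicate 2 of all groups) to 5. Single arrays that ended a call were MILT1444 well watered replicate 2 and drought-stressed replicate 1, DOURADOAGULHA well watered replicate 2 and drought-stressed replicates 2 and 3, KHAUMEO replicate 2 of either treatment, and in NIPPONBARE well watered replicates 2 and 3 and drought-stressed replicates 1 and 2. The F tests of HSFC2A level had adjusted p from 3.7e-04 to 0.13 under drought and from 0.0026 to 0.25 when well watered, both lost only without replicate 2 of all groups. The tolerant minus sensitive difference ran from 8.5e-04 to 0.40, the indica minus japonica difference from -0.17 to 0.48, and the interaction adjusted p from 0.474 to 0.99998. The count of heat shock proteins called up ran from 1 to 3.

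Within a variety, drought-stressed and well watered samples of the same replicate number showed little likeness. Of 18 such pairs, 4 correlated above 0.1 in their deviations from group means, from -0.30 to 0.20. Pairs of different numbers were not compared, so whether the numbers pair the samples was not tested. Likeness of a replicate number across varieties was not tested either. In every variety but NIPPONBARE, the lowest drought-stressed HSFC2A value was that of replicate 3. With the replicate block the HSFC2A average drought response stayed at 2.22 (adjusted p = 6.9e-07), 5 varieties were called, and 194 probe sets were called up, against 195 without it. The block could not be fitted for levels between varieties, because each block lies within a variety. The number of arrays limits the precision throughout.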
